A study of Mus musculus with 17 samples.

Results

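The metabotropic glutamate receptor genes Grm2, Grm3, Grm4, Grm5, Grm6, Grm7 and Grm8 were examined for chromatin accessibility in neuronal nuclei of the mouse nucleus accumbens. Mice without cocaine were compared with other mice 1 h after a first injection of cocaine. Their members were the ATAC-seq regions that overlapped the 7 gene bodies (mm10, GENCODE annotation) or the 10 kb on either side. Of 281189 regions formed by joining overlapping peaks of the 17 libraries, 147420 were called in at least 2 libraries of 1 group and were kept, and 321 of these (of 794 before that filter) lay at the 7 genes. Each library was made from NeuN+ nuclei sorted from bilateral accumbens tissue of 3 pooled C57BL/6 mice, 52 to 54 days old, so the spread between libraries, and every p-value, is that between pools. There were 3 libraries each of diestrus females without cocaine and with cocaine (10 mg/kg, intraperitoneal), 3 and 3 of proestrus females, 3 of males without cocaine and 2 of males with cocaine. The controls received no cocaine and are a 0 h baseline, and no group injected without cocaine is described. Effects of cocaine, of the injection and of the 1 h delay therefore cannot be told apart. The stage label of the second diestrus cocaine library is missing, and its group came from its title.

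Metabotropic glutamate receptors are G protein-coupled receptors that sense synaptic glutamate and adjust neuronal excitability and transmitter release over slow time scales. Grm5 encodes the member coupled to Gq and phospholipase C, mainly postsynaptic and abundant in striatal medium spiny neurons, which binds Homer scaffolds. Grm2 and Grm3 encode the Gi/o-coupled group II receptors, and Grm4, Grm7 and Grm8 encode Gi/o-coupled group III receptors that sit largely on presynaptic terminals. Grm6, also in group III, is known for its role in retinal ON bipolar cells. ATAC-seq marks DNA that a transposase can reach, and a peak at such a gene shows an open promoter or other open element, not transcription.

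The libraries held between 75458 and 157005 peaks on chromosomes 1 to 19 and X, lowest in the 2 male cocaine libraries. The height of a region was taken as the fold enrichment that the peak caller gave the summit of its strongest peak over the background of the same library, and read depths are not given in the peak files. Promoter peaks at the neuronal genes Rbfox3, Snap25 and Syt1 and at the medium spiny neuron genes Drd1, Drd2, Ppp1r1b, Penk and Tac1 were called in all 17 libraries. Promoters of Aqp4, Aldh1l1, Cx3cr1, Csf1r, Cldn5 and Pecam1, markers of astrocytes, microglia and endothelium, were called in 0 libraries, while those of the glial genes Gfap and Mbp were called in 16 and 17 and that of the cortical neuron gene Slc17a7 in 17. In such pooled nuclei, fewer cells of a type and less open DNA per cell cannot be told apart.

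The start sites of 5 of the 7 genes have an entry in the RefSeq promoter table (GRCm38.p6, the same assembly as mm10). They are shown because the strongest peaks of Grm3 and Grm7 covered them and because they differ in CpG content. Each sequence is the 250 bases before the most upstream listed start, 5′ to 3′ on the strand of the gene, with CpG dinucleotides in capitals.
Grm2, chr9:106656110-106656359, minus strand: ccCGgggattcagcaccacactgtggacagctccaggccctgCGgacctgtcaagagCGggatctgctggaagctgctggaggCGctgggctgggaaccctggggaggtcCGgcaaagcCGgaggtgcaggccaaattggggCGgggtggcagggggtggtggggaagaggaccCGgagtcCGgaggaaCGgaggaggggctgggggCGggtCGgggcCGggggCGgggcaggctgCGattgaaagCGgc
Grm3, chr5:9725353-9725602, minus strand: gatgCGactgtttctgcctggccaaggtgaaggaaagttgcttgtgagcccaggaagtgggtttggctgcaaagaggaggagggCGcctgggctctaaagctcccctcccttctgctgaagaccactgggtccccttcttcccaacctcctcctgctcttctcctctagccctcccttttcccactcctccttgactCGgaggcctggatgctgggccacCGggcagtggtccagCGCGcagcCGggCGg
Grm6, chr11:50850435-50850684, plus strand: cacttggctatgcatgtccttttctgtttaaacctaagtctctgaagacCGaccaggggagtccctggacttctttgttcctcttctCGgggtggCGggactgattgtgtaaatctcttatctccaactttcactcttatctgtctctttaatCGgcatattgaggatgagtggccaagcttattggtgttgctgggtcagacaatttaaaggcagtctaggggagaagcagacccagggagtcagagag
Grm7, chr6:110645262-110645511, plus strand: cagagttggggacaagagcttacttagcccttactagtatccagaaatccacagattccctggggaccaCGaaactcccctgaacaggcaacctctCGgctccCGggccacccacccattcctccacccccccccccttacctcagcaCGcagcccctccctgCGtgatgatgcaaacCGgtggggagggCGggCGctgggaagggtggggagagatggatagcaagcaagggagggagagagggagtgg
Grm8, chr6:28135147-28135396, minus strand: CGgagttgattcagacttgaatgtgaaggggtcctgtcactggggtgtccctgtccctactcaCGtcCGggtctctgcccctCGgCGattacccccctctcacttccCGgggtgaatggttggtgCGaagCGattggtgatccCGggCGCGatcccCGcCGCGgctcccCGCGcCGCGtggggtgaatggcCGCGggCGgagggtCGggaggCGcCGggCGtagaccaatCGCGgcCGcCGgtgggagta

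The Grm8 stretch held 29 CpG dinucleotides, the Grm2 stretch 16, those of Grm3 and Grm7 8 each and that of Grm6 4, against a median of 6 over the 32851 promoters of the table. None of the 5 held the AP-1 letters TGAGTCA, the cyclic AMP response element TGACGTCA or the Egr letters GCGTGGGCG on either strand; of all promoters, 4.46%, 1.55% and 0.536% did. The Grm4 and Grm5 promoters are not shown.

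Peaks lay at an annotated start of every member except Grm6 in most libraries, and their height differed between the genes. The Grm3 region Grm3_r103 (regions are numbered along the chromosome within each gene), chr5:9720252-9728098, had a fold enrichment of 11.7 in the lowest library, a median of 16.2 and 23.7 in the highest. The Grm7 start was covered by Grm7_r2, chr6:110644592-110650598, with a median fold enrichment of 15.6 (the predicted gene Gm20387 overlaps it). Next came Grm4_r45 in intron 1 of Grm4 at 8.06, Grm5_r1 at the Grm5 start at 7.87, and Grm4_r46 at 6.54. The Grm8 start region, Grm8_r64, had a median of 5.76, and Grm4_r53, at the most upstream Grm4 start, had 4.01. The Grm2 start region, Grm2_r8, had a median of 4.06 over the 16 libraries that called it and no call in diestrus cocaine 3. Near the Grm6 start, in a coding exon, Grm6_r3 was called in 2 of 3 male control libraries, at 2.42 and 2.85, and in no other library. A pair of internal starts were also covered, that of Grm4_r31 in 6 libraries and that of Grm5_r10 in 4. These values were not corrected for differences between libraries and are given without a test between genes.

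Most of the open DNA at these genes lay in introns. Of the 321 regions, 294 (91.6%) had their summit in an intron, 9 upstream, 11 downstream, 4 in coding exons and 3 in untranslated exons, and 11 touched the 1 kb around an annotated start. Grm7 (chr6:110645581-111567230, plus strand) held 116 of them, Grm5 (chr7:87584168-88134907, plus strand) 94, Grm3 (chr5:9485541-9725170, minus strand) 48 and Grm8 (chr6:27275119-28135178, minus strand) 34. Grm4 (chr17:27422387-27521403, minus strand) held 22, Grm2 (chr9:106643095-106656082, minus strand) 4 and Grm6 (chr11:50850685-50866208, plus strand) 3. Per 100 kb of window, Grm3 and Grm4 both held 18.5 kept regions, Grm5 16.5, Grm7 12.3, Grm2 12.1, Grm6 8.44 and Grm8 3.86, beside a median of 9.62 over protein-coding genes with at least 1 kept region. The regions were as wide as others (median 713 bp against 714 bp over all kept regions), and 43 of 321 (13.4%) were called in all 17 libraries, against 25.0% of all kept regions.

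Grm5 had more called regions in both female control groups than in any other group, and the largest difference with cocaine among the members tested. The number of kept regions called at Grm5 was 51, 65 and 70 in the diestrus controls and 41, 19 and 14 in the diestrus cocaine libraries. In proestrus it was 58, 51 and 53 in the controls and 29, 31 and 34 after cocaine. Male controls already had 29, 20 and 28, and male cocaine libraries 20 and 19.

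Because libraries differed in how many regions they called, the counts were expressed per 100000 kept regions called in the library. On that scale Grm5 had 69.3 ± 6.57 (SD, n = 3) in diestrus controls against 29.1 ± 11.4 (n = 3) after cocaine, and 69.0 ± 6.43 (n = 3) in proestrus controls against 37.4 ± 3.78 (n = 3). Males had 25.4 ± 3.86 (n = 3) without and 33.7 ± 2.05 (n = 2) with cocaine, the opposite order. Averaged over the 3 strata the difference, cocaine minus control, was -21.1 per 100000, with an exact permutation p of 0.00675 (two-sided, 4000 assignments of labels within strata) and an adjusted p of 0.0709 over 8553 protein-coding genes, so it did not pass the threshold of 0.05. Regions were kept by their calls within the labelled groups before labels were permuted. A region called in a single group therefore adds to the count of that group. Grm5_r8, for example, was called in 2 diestrus control libraries and in no other. Neither the counts of called regions per gene nor their permutation p-values take this filter into account. The same holds for the counts by intron and against surrounding GC content. Without the division by library total the Grm5 difference was -22.1 regions and passed (adjusted p = 0.0393, exact permutation test), as did 1459 of 8553 genes. When only peaks with a −log10 q of at least 5 were counted the difference was -4.47 (exact permutation p = 0.257, adjusted p = 0.508). With the same number of strongest peaks in each library it was -3.64 (exact permutation p = 0.2995, adjusted p = 0.494). The difference was thus smaller among strong peaks and passed in neither setting.

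**Figure D1:**
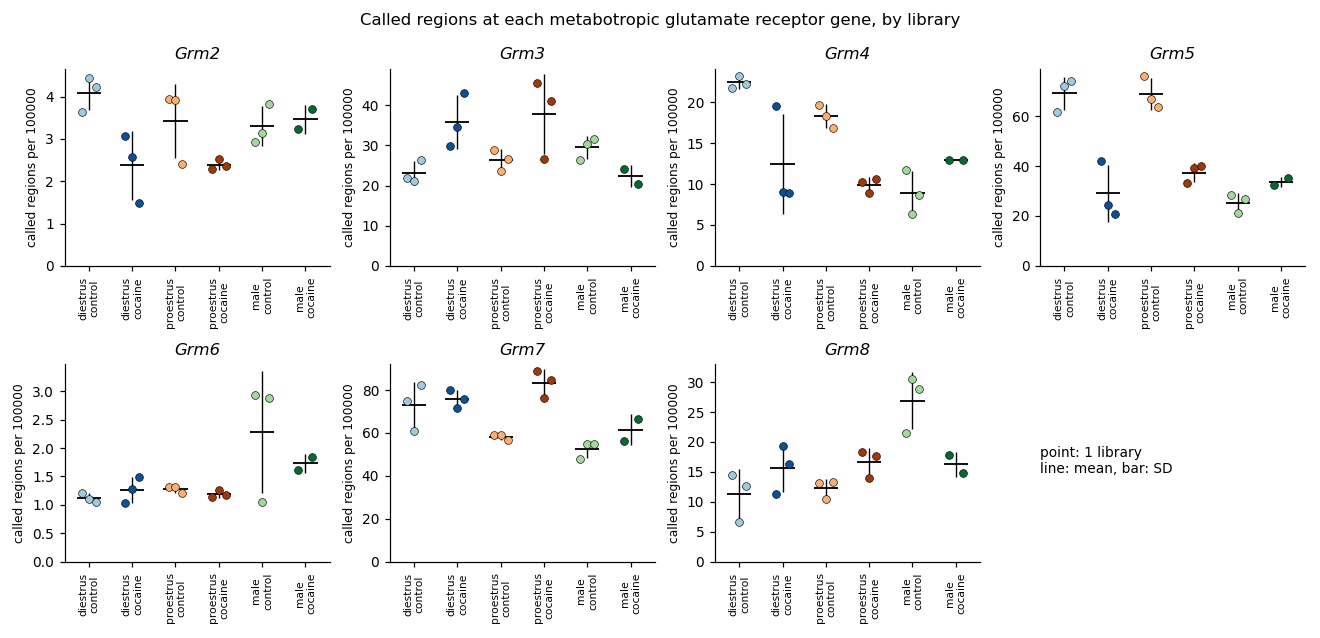
Kept regions called at each of the 7 genes per 100000 called in the library (vertical axis), by group; each point is 1 library, the line is the mean and the bar the SD. Grm5 and Grm4 are higher in both female control groups than in most cocaine and male libraries, and Grm8 is highest in male controls.

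Among kept regions, the Grm5 difference was spread over the long introns of the gene. Many of these regions met the filter only through a female control group, which by itself raises the control counts. Grm5_r20 was called in 2 diestrus controls only and Grm5_r38 in 2 proestrus controls only, both in intron 3. The counts by intron were not tested. In intron 3 of transcript Grm5-202, 24 of 39 kept regions were called on average in diestrus controls and 9 after cocaine, and in intron 4 it was 23.3 and 10.3 of 32. In proestrus the averages were 22.3 and 11.7 in intron 3 and 20.7 and 13.3 in intron 4. The start region, Grm5_r1, was called in all libraries, with fold enrichments of 7.36, 8.71 and 8.09 in diestrus controls and 8.43, 8.68 and 8.73 after cocaine, and its log2 difference was 0.06 ± 0.16 (SE). Few regions lay next to the gene: the 1 Mb beyond the window held 5 kept regions upstream and 14 downstream, and the downstream ones had 12.4 calls per 100000 in diestrus controls and 6.21 after cocaine, 7.19 and 7.55 in proestrus.

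**Figure D2:**
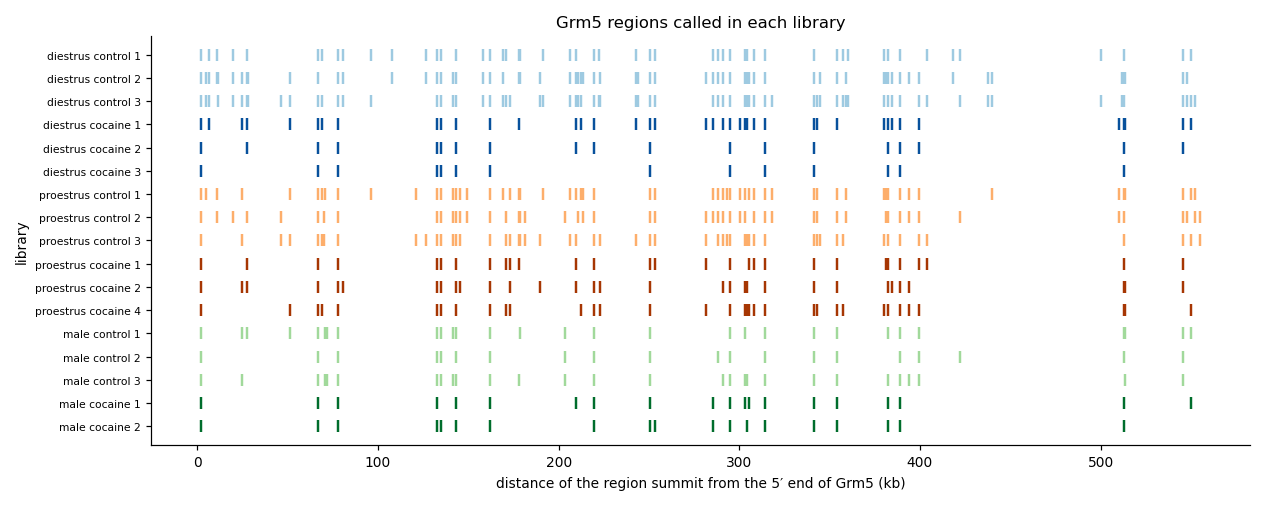
Position of each kept Grm5 region that was called (tick), as distance of its summit from the 5′ end of the gene in kb (horizontal axis), in each of the 17 libraries (rows). The 6 female control libraries carry 51 to 70 ticks, spread over the gene, and the cocaine and male libraries 14 to 41.

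Grm7, also a long gene, showed the opposite order in proestrus. It had 59.1, 59.0 and 56.7 called regions per 100000 in proestrus controls and 89.0, 76.1 and 84.6 after cocaine. In diestrus the means were 72.8 ± 10.9 and 75.9 ± 4.09 (SD, n = 3 each), and the groups overlapped. Males had 52.4 ± 3.97 (n = 3) without and 61.6 ± 7.19 (n = 2) with cocaine. The mean difference over the strata was 12.4, with an exact permutation p of 0.00925 and an adjusted p of 0.0824. With equal numbers of strongest peaks it was 10.1 and passed (exact permutation test, adjusted p = 0.0354), as did 317 of 6267 genes. Without the division by library total it was 1.28 (exact permutation p = 0.839, adjusted p = 0.914). With a −log10 q of at least 5 it was 4.32 (exact permutation p = 0.127, adjusted p = 0.343), and it passed in neither of these.

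Grm4 had 22.4 ± 0.760 called regions per 100000 in diestrus controls and 12.5 ± 6.08 after cocaine, and 18.3 ± 1.42 and 9.91 ± 0.907 in proestrus (SD, n = 3 each). The first diestrus cocaine library, at 19.5, stood near its controls and the others were at 8.98 and 8.93. In males Grm4 had 8.88 ± 2.71 (n = 3) in controls and 12.9 ± 0.0344 (n = 2) after cocaine. The mean difference was -4.77 (exact permutation p = 0.0493, adjusted p = 0.171). It passed without the division by library total (-5.61, exact permutation test, adjusted p = 0.0432), as did 1459 of 8553 genes. It did not pass with a −log10 q of at least 5 (-3.71, exact permutation p = 0.165, adjusted p = 0.395). Nor did it with equal numbers of strongest peaks (-4.56, exact permutation test, adjusted p = 0.201). Grm3 differed by 5.67 (exact permutation p = 0.122, adjusted p = 0.280), with 12.8 among diestrus libraries, 11.4 among proestrus libraries and -7.20 among males. Grm8 differed by -0.66 (exact permutation p = 0.801), again with 4.34, 4.31 and -10.6. Grm2 and Grm6 had under 3 called regions per library on average and were not tested.

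Of the 5 members tested, 0 passed the adjusted threshold of the exact permutation test, and 3 (Grm7 with more, Grm4 and Grm5 with fewer called regions after cocaine) had an unadjusted p under 0.05. Over all 8553 genes, 3.10% had more and 2.97% fewer called regions at the adjusted threshold, and 28.9% had either at the unadjusted one. The median difference was -0.66 over the 5 members and -0.20 over all genes. The other genes of the pathway (scaffolds, G protein subunits, effectors, regulators and glutamate transporters) gave 2 with more and 2 with fewer of 26 tested at the unadjusted threshold and 0 at the adjusted one, with a median difference of -0.95. Those with more were Gnai1, a Gi alpha subunit (5.05), and Slc7a11, the cystine-glutamate exchanger (3.67), and those with fewer Gnao1, the Go alpha subunit (-4.07), and the postsynaptic scaffold Shank1 (-3.24). Of 16 ionotropic receptor genes, 2 had more and 4 fewer at the unadjusted threshold (median 0.18), and the NMDA receptor subunit genes Grin2a (-9.20, adjusted p = 0.0431, exact permutation test) and Grin3a (4.46, adjusted p = 0.0280, exact permutation test) passed the adjusted one.

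The GC content around regions moved with their signal after cocaine, and its part in the counts was not tested beyond the alternative given here. Over regions called in all libraries, the median log2 difference in diestrus was 0.21 in the lowest of 20 bins of GC content of the surrounding 1 Mb and -0.33 in the highest; it was 0.18 and -0.26 in proestrus and -0.10 and 0.20 in males. Grm4 lies in GC-rich DNA (median 51.4% in the 1 Mb around its regions), while Grm5 (37.0%), Grm7 (38.0%), Grm8 (38.9%) and Grm3 (39.0%) lie in AT-rich DNA (all kept regions, 43.4%). The called regions were therefore also set against the number expected from the call rate of each GC bin in the same library, an alternative added after the data were seen. Grm5 was then at 1.36, 1.87 and 1.59 times the expected number in diestrus controls and at 0.98, 0.44 and 0.34 after cocaine. In proestrus it was at 1.58, 1.69 and 1.65 times in controls and at 0.50, 0.81 and 0.58 after cocaine, and in males at 0.66, 0.36 and 0.54 in controls and at 0.46 and 0.49 after cocaine. The male cocaine libraries thus lay among the male controls on this scale, where their mean had been higher per 100000. The mean difference at Grm5 became -37.6 per 100000 (exact permutation p = 0.00075, adjusted p = 0.0373), and 432 of 8553 genes passed in this setting. The differences of Grm7 and Grm3 changed sign, to -4.76 and -0.37, and that of Grm4 became -1.59 (exact permutation p = 0.217). That of Grm8 became -4.64 (exact permutation p = 0.0198, adjusted p = 0.127). The 1 Mb upstream of the Grm4 window moved in the same order as the gene, from 125 called regions per 100000 in diestrus controls to 77.8 after cocaine.

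**Figure D3:**
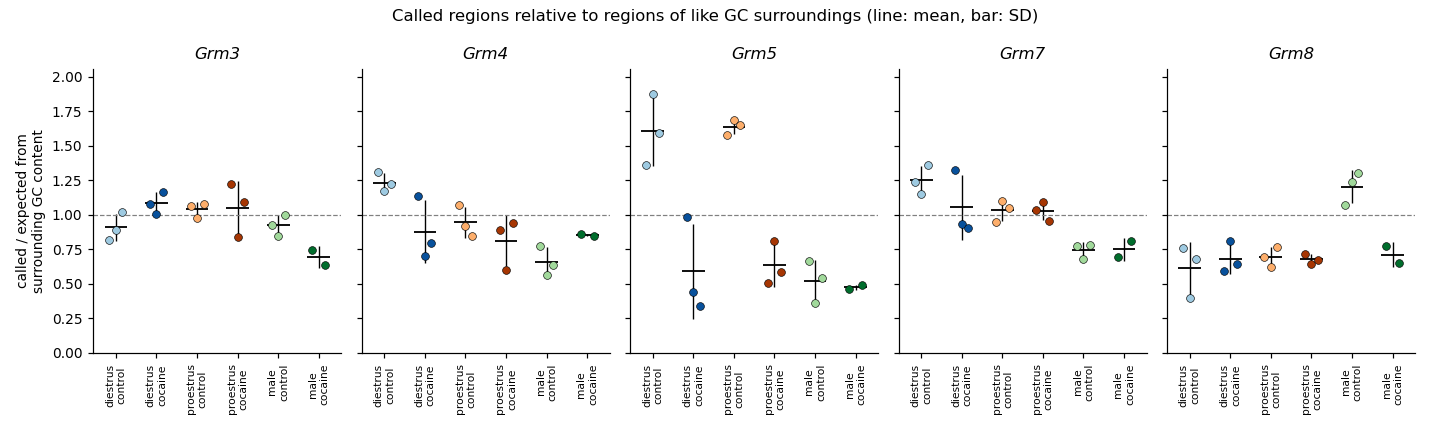
Called regions at 5 genes divided by the number expected from the call rate of regions with like surrounding GC content in the same library (vertical axis, linear), by group; points are libraries, lines means, bars SDs, and the dashed line marks 1. Grm5 is above 1.3 in all 6 female control libraries and below 1 in the other 11.

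The height of the 43 regions called in all libraries was then compared with limma on log2 fold enrichment, each library centred on its median and p-values adjusted over all 36847 such regions. In diestrus, 1 member region was higher and 11 were lower after cocaine, against 4.47% higher and 4.94% lower of all regions. In proestrus 1 was higher and 1 lower (1.52% and 1.19% of all), and in males 0 were higher and 2 lower (3.09% and 5.42% of all). At an unadjusted limma p under 0.05, 7 were higher and 5 lower in males, against 4117 and 4886 of all 36847. The median log2 difference was -0.08, -0.05 and 0.07 over the 43 regions and -0.01, 0.00 and 0.01 over all. The lower regions in diestrus belonged to Grm4 (5 of 6), Grm5 (4 of 11), Grm7 (1 of 15) and Grm8 (1 of 4), and the higher one to Grm3. The diestrus count rested on cocaine libraries 2 and 3: without either of them it was 0, and without cocaine library 1 it was 17. Without control library 1, 2 or 3 it was 6, 4 or 3, and in a fit of the 6 diestrus libraries alone it was 0.

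Centring mattered to these counts. Left uncentred, the median of all regions shifted by 0.03 in diestrus, 0.09 in proestrus and -0.40 in males, and the member counts became 0 higher and 1 lower, 0 and 0, and 0 higher and 16 lower. Of all 36847 regions, 816, 614 and 12232 passed uncentred, in either direction. Centred within GC bins, the member counts were 0 higher and 6 lower for diestrus, 0 and 1 for proestrus, and 2 and 2 for males. Of all 36847 regions, 1577, 612 and 3605 then passed in either direction. The member counts in proestrus and males were small and moved between 0 and 6, and between 1 and 4, when single libraries were left out. In proestrus they were 0 without control 1 or 2 or cocaine 1 or 4 and 6 without cocaine 2. In males they were 1 without control 1 or either cocaine library.

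**Figure D4:**
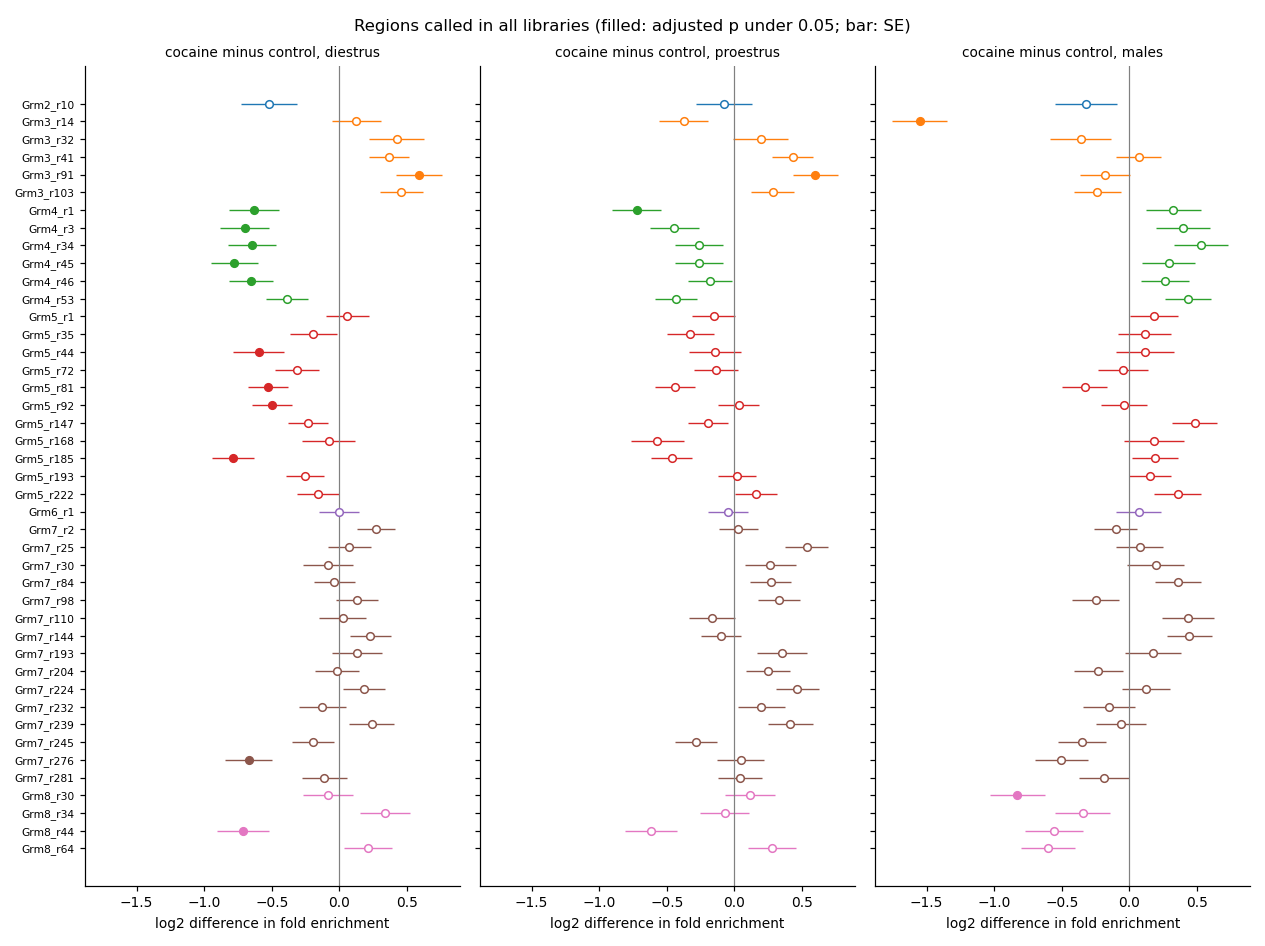
Log2 difference in fold enrichment, cocaine minus control (horizontal axis), of the 43 regions called in all libraries (rows, colored by gene) in diestrus, proestrus and males; bars are SE and filled points passed an adjusted p of 0.05 (limma). All 6 Grm4 regions lie below 0 in both female stages and above 0 in males, and Grm3_r14 lies at -1.55 in males.

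Of the regions that passed with cocaine, 6 are shown as the 151 bases around the summit, with the 11 bases centered on the summit in capitals.
Grm5_r185, chr7:87898561-87898711, plus strand: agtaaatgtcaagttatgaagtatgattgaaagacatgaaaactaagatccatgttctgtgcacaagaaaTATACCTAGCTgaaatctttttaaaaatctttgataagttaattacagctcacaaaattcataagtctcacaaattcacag
Grm5_r81, chr7:87727491-87727641, plus strand: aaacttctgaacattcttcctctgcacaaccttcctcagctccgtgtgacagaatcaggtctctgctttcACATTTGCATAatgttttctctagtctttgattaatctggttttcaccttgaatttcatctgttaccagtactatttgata
Grm4_r45, chr17:27501821-27501971, plus strand: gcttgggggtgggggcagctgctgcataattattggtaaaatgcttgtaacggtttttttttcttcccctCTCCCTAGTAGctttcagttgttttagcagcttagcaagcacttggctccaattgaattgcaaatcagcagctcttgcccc
Grm3_r91, chr5:9704957-9705107, plus strand: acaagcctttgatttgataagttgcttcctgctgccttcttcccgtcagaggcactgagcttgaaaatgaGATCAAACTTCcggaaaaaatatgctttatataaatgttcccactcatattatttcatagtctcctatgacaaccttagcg
Grm3_r14, chr5:9495650-9495800, plus strand: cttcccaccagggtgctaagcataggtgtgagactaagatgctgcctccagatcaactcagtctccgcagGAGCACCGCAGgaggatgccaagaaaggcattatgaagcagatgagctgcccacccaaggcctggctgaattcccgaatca
Grm8_r30, chr6:27689586-27689736, plus strand: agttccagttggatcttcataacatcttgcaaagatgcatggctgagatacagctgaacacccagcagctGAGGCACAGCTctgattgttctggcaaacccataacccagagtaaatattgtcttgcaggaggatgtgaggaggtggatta

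Grm5_r185, in intron 4 of Grm5 and the highest Grm5 region away from a start, had fold enrichments of 12.9, 15.1 and 14.1 in diestrus controls and 12.7, 7.67 and 5.97 after cocaine. The first cocaine library stood just below the lowest control and the groups did not overlap. Its log2 difference was -0.79 ± 0.16 (SE, limma adjusted p = 0.00731) and remained at -0.99 when centred within GC bins (adjusted p = 0.00804). In proestrus the region had 10.5, 11.8 and 10.4 in controls and 8.81, 7.59 and 8.80 after cocaine, a log2 difference of -0.46 that did not pass the adjusted threshold. Grm5_r81, in intron 3, had 6.33, 6.36 and 6.12 in diestrus controls and 6.17, 5.03 and 2.87 after cocaine, so cocaine library 1 lay among the controls. Of the other Grm5 regions besides Grm5_r185, Grm5_r44 (-0.60), Grm5_r81 (-0.53) and Grm5_r92 (-0.50) also fell in diestrus (limma adjusted p = 0.0474, 0.0291 and 0.0383), and they did so centred within GC bins. Over 23 alternatives, Grm5_r44 still passed in 6, Grm5_r81 and Grm5_r92 in 15 each, and Grm5_r185 in 20. Of the 11 Grm5 regions, 10 had a negative log2 difference in diestrus and 8 in proestrus.

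The Grm4 regions had log2 differences from -0.78 to -0.39 in diestrus and from -0.72 to -0.18 in proestrus. Grm4_r45 had 10.7, 16.1 and 16.7 in diestrus controls and 12.9, 9.31 and 5.17 after cocaine, so the groups overlapped in raw values (log2 difference -0.78 ± 0.17, limma adjusted p = 0.0110). Grm4_r1, downstream of the gene, had 11.6, 12.5 and 11.6 in proestrus controls and 7.51, 8.66 and 6.91 after cocaine. It fell in both stages, by 0.63 in diestrus (limma adjusted p = 0.0315) and by 0.72 in proestrus (adjusted p = 0.0326). Grm4_r3 (-0.70), Grm4_r34 (-0.64) and Grm4_r46 (-0.65) fell in diestrus. Centred within GC bins, 0 of the 6 Grm4 regions passed in diestrus or proestrus, and their log2 differences in diestrus lay between -0.45 and -0.06.

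Grm3_r91, in intron 1 of Grm3, was the member region that rose in both female stages. Its fold enrichments were 4.13, 4.58 and 5.19 in diestrus controls and 7.95, 8.30 and 5.51 after cocaine. In proestrus they were 4.22, 4.87 and 6.35, and 9.71, 6.10 and 9.22 after cocaine, so the groups overlapped there. The log2 differences were 0.59 ± 0.17 and 0.60 ± 0.17 (limma adjusted p = 0.0293 and 0.0491); centred within GC bins they were 0.39 in each stage, with adjusted p of 0.132 and 0.187. The start region of Grm3, Grm3_r103, had a log2 difference of 0.46 in diestrus and 0.28 in proestrus, and Grm3_r41 in intron 2, the highest away from a start, 0.37 and 0.43; neither passed.

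In males Grm3_r14, in intron 5 of Grm3, had fold enrichments of 11.9, 12.8 and 13.4 in controls and 3.39 and 3.14 after cocaine. Its log2 difference was -1.55 ± 0.20 (limma adjusted p = 3.9e-05), and the adjusted p stayed under 0.05 in every alternative run. The female libraries lay between 2.99 and 6.79 whether treated or not, so the male controls were the samples that stood out. Grm8_r30, in intron 6 of Grm8, showed the same order, with 11.7, 8.54 and 7.57 in male controls, 4.15 and 3.60 after cocaine, and 3.33 to 5.53 in all female libraries (log2 difference -0.83 ± 0.21, limma adjusted p = 0.0112). The start region Grm8_r64 had 11.1, 8.68 and 7.46 in male controls and 4.04 and 4.88 after cocaine (-0.60, limma adjusted p = 0.0554). Grm8_r30 no longer passed without male control 1 or without either male cocaine library.

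**Figure D5:**
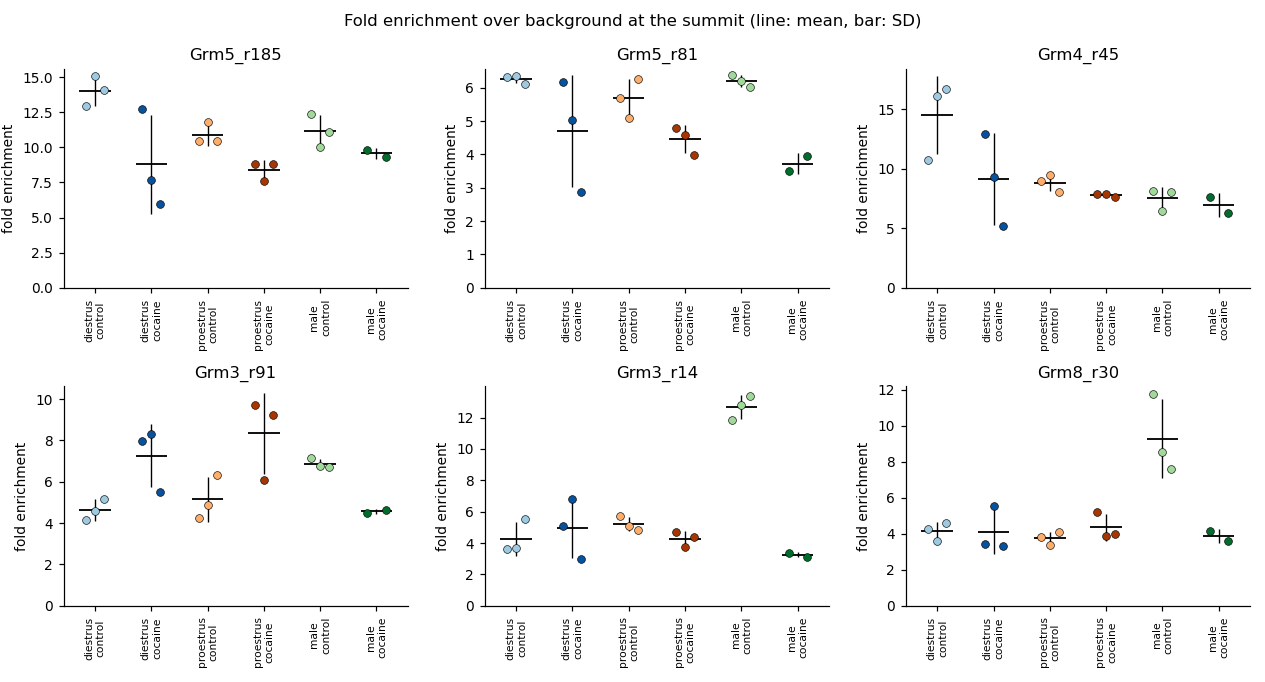
Fold enrichment at the summit (vertical axis, not centred) of 6 regions by group; points are libraries, lines means and bars SDs. Grm3_r14 and Grm8_r30 are highest in the 3 male control libraries, and Grm5_r185 is lowest in diestrus cocaine library 3, at 5.97.

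In diestrus Grm7_r276, in intron 9 of Grm7, had 8.39, 5.58 and 5.60 in controls and 6.05, 3.77 and 3.10 after cocaine (log2 difference -0.67 ± 0.18, limma adjusted p = 0.0210). Grm8_r44, in intron 3 of Grm8, had 5.55, 4.13 and 3.84 against 2.85, 2.89 and 2.64 (-0.71 ± 0.19, limma adjusted p = 0.0236), and it was also low after cocaine in proestrus, at 3.51, 2.99 and 3.67 against 6.12, 5.11 and 3.70, without passing there (-0.62, limma adjusted p = 0.0685); centred within GC bins it passed (-0.82, limma adjusted p = 0.0172). Neither of the highest Grm7 elements away from the start passed: Grm7_r245 had log2 differences of -0.19, -0.28 and -0.35 in diestrus, proestrus and males, and Grm7_r84 of -0.04, 0.27 and 0.36. The Grm2 element Grm2_r10, upstream of the gene and overlapping Tex264, had -0.52, -0.08 and -0.32, and the Grm6 element Grm6_r1, upstream of Grm6 and overlapping Zfp879, had 0.00, -0.05 and 0.07.

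Among the other pathway genes, 4 of 181 such regions were higher and 9 lower for diestrus, 3 and 1 for proestrus, and 4 and 12 for males. At ionotropic receptor genes it was 3 higher and 10 lower of 125 for diestrus, 2 and 3 for proestrus and 3 and 6 for males (limma, adjusted over all regions).

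In diestrus 4 of 321 member regions were gained, that is called in all 3 cocaine and no control library, and 8 were lost, against 1.16% and 1.26% of all kept regions. In proestrus 8 were gained and 6 lost (2.45% and 1.64% of all), and in males 7 were gained and 34 lost (1.66% and 16.8% of all); the male cocaine libraries called the fewest regions, and the part of this in the lost calls was not tested beyond the alternatives. Of the 8 lost in diestrus, 6 were at Grm5, 1 at Grm4 and 1 at Grm7, and of the 6 lost in proestrus 3 were at Grm5, 2 at Grm4 and 1 at Grm8. Of the gained regions, 3 of 4 in diestrus and 6 of 8 in proestrus were at Grm7. The 34 lost in males were at Grm8 (11 of its 34 regions), Grm7 (10), Grm3 (9), Grm5 (3) and Grm2 (1).

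Grm5_r164, in intron 4 of Grm5, was the region lost in both female stages. It was called at 3.10, 3.01 and 2.70 in diestrus controls and at 2.53, 3.25 and 2.65 in proestrus controls, and in none of the 6 female cocaine libraries. The other regions lost at Grm5 in diestrus were Grm5_r10, Grm5_r89, Grm5_r46, Grm5_r93 and Grm5_r121, and in proestrus Grm5_r80 and Grm5_r101, all in intron 3. At Grm4, Grm4_r51 and Grm4_r10 were lost in proestrus and Grm4_r11 in diestrus. Grm7_r77, Grm7_r99 and Grm7_r253 were gained in diestrus, beside Grm3_r71, and Grm7_r65 was lost there. Grm7_r160, Grm7_r74, Grm7_r8, Grm7_r153, Grm8_r5 and Grm3_r101 led those gained in proestrus. Grm7_r160 was gained in proestrus and lost in males, and Grm7_r138 was gained in both proestrus and males. Grm8_r46 was lost in proestrus and in males. In males, Grm8_r36 (called at 5.23, 4.27 and 5.16 in the controls and in no other of the 17 libraries), Grm8_r42, Grm8_r7, Grm8_r21, Grm3_r68 and Grm3_r38 had the highest mean enrichment among the lost, and Grm8_r17, Grm5_r162, Grm7_r209, Grm3_r46, Grm8_r22 and Grm7_r5 among the gained.

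A match to TGAGTCA, the AP-1 letters, within 100 bases of the summit on either strand was present in 29 of 321 member regions (9.03%) and in 10.1% of all kept regions. By gene it was 13 of 116 at Grm7, 8 of 94 at Grm5, 5 of 34 at Grm8, 3 of 48 at Grm3 and 0 at Grm2, Grm4 and Grm6. The authors describe the AP-1 protein cFos as implicated in acute effects of cocaine. AP-1 induction was not measured here. Of the gained or lost regions with a match, Grm5_r164 and Grm7_r160 are shown, and Grm3_r73 and Grm8_r21, lost in males, are not. Grm7_r245, the highest Grm7 element away from the start, is shown beside them. The 201 bases around the summit are given, with the match in capitals.
Grm5_r164, chr7:87872528-87872728, plus strand: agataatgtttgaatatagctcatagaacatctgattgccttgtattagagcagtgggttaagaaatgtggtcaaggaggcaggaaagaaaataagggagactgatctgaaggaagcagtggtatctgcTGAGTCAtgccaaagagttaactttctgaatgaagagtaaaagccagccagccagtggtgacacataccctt
Grm7_r160, chr6:111025161-111025361, plus strand: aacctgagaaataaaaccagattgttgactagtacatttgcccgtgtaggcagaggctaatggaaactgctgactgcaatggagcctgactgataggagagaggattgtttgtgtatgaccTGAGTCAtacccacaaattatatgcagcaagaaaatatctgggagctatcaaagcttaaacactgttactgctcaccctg
Grm7_r245, chr6:111371832-111372032, plus strand: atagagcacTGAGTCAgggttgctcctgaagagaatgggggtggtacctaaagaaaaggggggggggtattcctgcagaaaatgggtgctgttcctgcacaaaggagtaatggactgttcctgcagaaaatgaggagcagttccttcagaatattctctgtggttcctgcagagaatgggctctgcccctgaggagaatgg

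The match lies 32 bases to the right of the summit in Grm5_r164 and 24 in Grm7_r160, and near the edge of the window in Grm7_r245. A match is a description of the letters and not of binding.

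Pooled over sexes and stages, 161 member regions called in 4 to 13 libraries were tested with a two-sided Fisher's exact test of 8 cocaine against 9 control libraries. None passed after adjustment over 64304 regions (0 member regions, lowest adjusted p = 0.216). At the unadjusted threshold 6 were called more often and 10 less often after cocaine, against 3.81% and 9.23% of all regions tested. Grm3_r101, in intron 1 of Grm3, was called in 6 cocaine and 0 control libraries (Fisher's exact p = 0.00226). Grm7_r253 was called in 7 and 1 (Fisher's exact p = 0.00337). Grm5_r80 and Grm5_r164 were each called in 0 cocaine and 7 control libraries (Fisher's exact p = 0.00226). Grm2_r2, at the 3′ end of Grm2, and Grm4_r51 were each called in 1 and 8 (Fisher's exact p = 0.00337). Grm7_r74, Grm7_r138 and Grm7_r153 were called in 5 cocaine and 0 control libraries each (Fisher's exact p = 0.00905).

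The control libraries differed by sex at most of these genes. Of the 43 regions, 6 were higher and 14 lower in male than in diestrus controls (limma, 11.7% and 11.9% of all), and 4 were higher and 7 lower in male than in proestrus controls (7.33% and 6.17% of all). Between diestrus and proestrus controls 0 were higher and 0 lower (0.320% and 0.0678% of all). At an unadjusted limma p under 0.05 it was 3 and 3, against 2919 and 2317 of all 36847 regions. All 6 Grm4 regions were lower in male than in diestrus controls, from -1.09 at Grm4_r45 (limma adjusted p = 9.5e-05) to -0.54 at Grm4_r53 (adjusted p = 0.0134), and 4 of the 6 still passed centred within GC bins. Of the 11 Grm5 regions, 5 were lower, with -0.50 at Grm5_r185. The higher ones belonged to Grm3 (3 of 5) and Grm8 (3 of 4), led by Grm3_r14 (1.43, limma adjusted p = 7e-06) and Grm8_r30 (0.98, adjusted p = 0.000481). Against proestrus controls, Grm3_r14 differed by 0.93 and Grm8_r30 by 0.94, and Grm2_r10 was higher in males by 0.84 (limma adjusted p = 0.00870). Without centring, 7 were higher and 4 lower against diestrus and 11 higher and 1 lower against proestrus controls, with the median of all regions shifted by 0.17 and 0.34. Of all 36847 regions, 7779 and 12094 then passed in either direction. These contrasts and the cocaine contrasts share the control libraries.

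Counted per 100000 called regions, Grm5 had 25.4 ± 3.86 in 3 male and 69.1 ± 5.81 (SD) in 6 female control libraries, Grm4 8.88 ± 2.71 and 20.4 ± 2.47, and Grm8 26.9 ± 4.79 and 11.8 ± 2.85. None of these groups overlapped, and each exact permutation p was 0.0119, the smallest that 84 assignments can give (adjusted p = 0.0531). The kept regions were again chosen by calls within the labelled groups, which these p-values do not take into account. Grm7 had 52.4 ± 3.97 and 65.6 ± 10.6 (exact permutation p = 0.0833), and Grm3 29.5 ± 2.80 and 24.7 ± 3.07 (exact permutation p = 0.0952). Over all genes 10.8% had more and 34.3% fewer called regions in male controls at an unadjusted p under 0.05, and 0 passed at the adjusted one (exact permutation test), where the smallest adjusted p was 0.0531. Set against the number expected from surrounding GC content, the differences were -51.0 at Grm5, -26.5 at Grm7, -5.98 at Grm4 and 10.8 at Grm8, each with an unadjusted exact permutation p under 0.05, while 10.8% of genes had more and 20.2% fewer. Of the member regions, 11 were called in every male and no female control library (7.20% of all kept regions), 5 of them at Grm8, 3 at Grm3 and 3 at Grm7, and 2, both at Grm5, in every female and no male control library (0.314% of all).

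The response to cocaine differed between males and females at 13 of the 43 regions. The difference of the log2 effect, males minus the mean of both female stages, was above 0 at 8 and below 0 at 5 (limma, 7.66% and 8.22% of all). All 6 Grm4 regions were among the 8, from 0.68 at Grm4_r46 to 1.00 at Grm4_r1 (limma adjusted p = 0.0308 and 0.00820), with Grm5_r185 (0.81, adjusted p = 0.0106) and Grm5_r147 (0.70, adjusted p = 0.0197). Those below 0 were Grm3_r14 (-1.43, limma adjusted p = 0.000571), Grm8_r64 (-0.85), Grm8_r30 (-0.85), Grm3_r91 (-0.77) and Grm3_r103 (-0.61). Without centring (13969 of all 36847 regions passed) 0 were above and 17 below 0, with the median of all regions shifted by -0.48. Centred within GC bins (3239 of all 36847 regions passed), 5 were above 0 (3 at Grm5 and 2 at Grm7) and 1 below (Grm3_r14), and 0 of the Grm4 regions passed. The count was 3 without male cocaine 1, 4 without male cocaine 2 and 8 without male control 2. Between diestrus and proestrus the cocaine effect differed at 0 member regions (limma, 0.00% higher and 0.00543% lower of all regions). At an unadjusted limma p under 0.05, 0 were above and 5 below 0, against 984 and 1497 of all 36847 regions.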

How the data were processed

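Nuclei were sorted for NeuN, transposed and sequenced, and the authors trimmed adapters, aligned reads to mm10 with BWA and called peaks in each library with MACS2; versions and options are not given in the sources used here. The deposited peak files hold a score, a fold enrichment ratio at the summit, a −log10 p and a −log10 q per peak. No read counts were used here. Here, peaks on chromosomes 1 to 19 and X were joined where they shared at least 1 bp. Log2 fold enrichment was tested with limma 3.58.1 (R 4.3.3) over regions called in all 17 libraries, in 1 fit of 6 group means, each library centred on its median difference from the region means. Calls were tested with Fisher's exact test, and called regions per gene with an exact permutation test (Python 3.11.15, scipy 1.17.1), all with Benjamini-Hochberg adjustment over all features at 0.05. The filter to kept regions used the group labels and was not repeated for each assignment of labels. Scripts were tested on simulated data. Named regions were those at annotated starts, those past the threshold with cocaine, those gained or lost (6 per stratum and direction, by mean fold enrichment), the 3 smallest Fisher p each way and the highest region per gene away from starts; others, such as those for male controls, Grm5_r44 and Grm5_r92, were chosen after their values were seen. Members and gene lists were chosen with earlier results of these data known. GC-based alternatives, the test of sex in controls and the 1 Mb surroundings were added later. No pair of libraries shared over 0.0728% of identical intervals. The 1-bp joining, GC bins (20, over 1 Mb) and promoter window (1 kb) set which peaks count together.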

Additional observations from a re-analysis of the deposited data

Results flagged for a closer look

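The limma test of the difference in cocaine effect, males minus the mean of both female stages, passed the adjusted threshold at 13 member regions, 8 with a more positive effect in males and 5 with a more negative one. The log2 differences were 1.00 at Grm4_r1, 0.97 at Grm4_r3, 0.98 at Grm4_r34, 0.81 at Grm4_r45, 0.68 at Grm4_r46, 0.84 at Grm4_r53, 0.70 at Grm5_r147 and 0.81 at Grm5_r185. They were -1.43 at Grm3_r14, -0.77 at Grm3_r91, -0.61 at Grm3_r103, -0.85 at Grm8_r30 and -0.85 at Grm8_r64. Surrounding GC content moved with this contrast: the median log2 difference of all regions was -0.30 in the lowest GC bin and 0.50 in the highest. Centred within GC bins, Grm3_r14 (-1.06, limma adjusted p = 0.00635), Grm5_r185 (1.12, adjusted p = 0.00434) and Grm5_r147 (1.01, adjusted p = 0.00935) still passed and the Grm4 regions did not. Only 2 male cocaine libraries entered the contrast. Groups of 3 libraries or fewer were not tested for outlying samples.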

How the results depend on the processing

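Counts of member regions by limma moved as follows. Without centring they were 1 for cocaine in diestrus, 0 in proestrus, 16 in males and 11 for male against diestrus controls (816, 614, 12232 and 7779 of all 36847 regions). Centred within GC bins they were 6, 1 and 4 for cocaine, 7 for male against proestrus controls and 6 for males minus females (1577, 612, 3605, 5549 and 3239 of all). With only the compared libraries they were 0, 1 and 5 for cocaine and 1 for diestrus against proestrus controls. With regions called in every compared library the count was 1 in proestrus and 1 for diestrus against proestrus controls, and with quantile scaling 4 in proestrus. With the replicate block it was 7 in diestrus and 0 in proestrus; it moved no other cocaine contrast beyond 1.5 times. The replicate numbers pair the samples by no label, and same-numbered libraries deviated together with r from -0.29 to 0.20, so the block result is given here alone. Leaving out 1 library each gave 0 to 17 in diestrus, 0 to 6 in proestrus, 1 to 4 in males, 11 to 22 and 5 to 13 for male against diestrus and proestrus controls, and 3 to 15 for males minus females. Beyond the libraries named above, male against diestrus controls gave 13, 11 and 13 without diestrus control 2 or 3 or male control 3, and male against proestrus controls 6, 6, 5 and 7 without proestrus control 1 or 2 or male control 2 or 3. The proestrus cocaine count was 5 without diestrus cocaine 1.

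With −log10 q of at least 5, 1 was gained and 3 lost in diestrus, 1 gained in proestrus, 1 gained and 22 lost in males; with equal numbers of strongest peaks, 3 were lost in diestrus, 2 gained in proestrus, and 11 gained and 14 lost in males. Leaving out 1 library each gave 4 to 10 gained and 8 to 35 lost in diestrus, 8 to 31 and 6 to 20 in proestrus, and 7 to 12 and 34 to 53 in males, where fewer libraries had to agree; the highest came without diestrus control 3, diestrus cocaine 1, proestrus cocaine 2, proestrus control 3, male cocaine 2 and male control 2 in that order. Unadjusted Fisher counts were 3 more often and 3 less often at the stricter q, 1 less often with equal numbers of peaks, and 6 to 12 less often without single libraries (6 without diestrus control 1 or 3 or proestrus control 1). For these gained, lost and Fisher counts the shares over all kept regions were not computed. The counts therefore do not compare the members with all regions. By called regions per gene, 1 member gene passed with equal numbers of peaks (Grm7, 10.1), where 317 of 6267 genes passed. Without dividing by the library total 2 passed (Grm5 and Grm4), where 1459 of 8553 genes did. Against surrounding GC content 1 passed (Grm5), where 432 of 8553 did. In the main setting 519 of 8553 genes passed. Of all genes, 0 passed without diestrus control 1, 2 or 3 or male control 1, and 1022 of 8451 without diestrus cocaine 1. Grm8 became 0.75 with equal numbers of peaks and lay between -2.11 and 0.15 without single libraries. Against surrounding GC content Grm3 became -0.37, Grm7 -4.76 and Grm8 -4.64. The cause was not tested. Of 368 alternatives run on the 16 single regions that passed with cocaine, 248 kept direction and call, 120 kept direction only and 0 changed direction. The peak files hold no read depth, and regions near the calling threshold carry most gained and lost calls.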
